A study of Rattus norvegicus with 84 samples.

Results

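The synaptic vesicle release machinery is described here through 39 genes, chosen by symbol from the protein families that dock, prime, fuse and recycle the release apparatus at the presynaptic terminal. Of these, 38 had a row in each of the 3 tables used here, which hold 15553 genes for CA1, 15706 for CA3 and 15374 for the dentate gyrus (DG), and all 38 passed the filter on low values in every comparison; Sv2b was not analysed here. RNA came from male rats of the inbred F344 strain, 16 of 12 months (middle-aged) and 12 of 5 months (young), and each rat gave 1 library from each of the 3 subregions, all from a single hemisphere. The series sets out the transcripts of these subregions against changes with age in the separation of spatial patterns, the telling apart of similar places; behavioural scores were not analysed here. All rats were killed under brief isoflurane anaesthesia, and the labels name no transgene or other treatment.

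At a presynaptic terminal, transmitter is loaded into vesicles by transporters, vesicles are held by synapsins, docked and primed at the active zone by RIM, Munc13, ELKS, liprin-alpha, Bassoon and Piccolo, and fused by SNARE proteins when a synaptotagmin binds calcium. Complexins clamp and assist the assembled SNAREs, and NSF with SNAP adaptors takes the spent complexes apart. In the hippocampus this machinery works mainly in glutamatergic terminals: granule cells of the DG send mossy fibres to CA3, and CA3 sends Schaffer collaterals to CA1, so that a messenger RNA read in one subregion often serves terminals in another.

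Recovered reads per library ranged from 14.4 to 23.4 M. Pyramidal and granule cell markers fitted the labelled tissue: the mean of the CA1 pyramidal, CA3 pyramidal and dentate granule markers was higher in its own subregion than in the others in 28 of 28 rats, although 5 of 7 CA3 markers did so by median singly, against 6 of 6 for CA1 and 6 of 6 for the DG. Choroid plexus markers varied far more between libraries. Their sum reached 20003 normalized counts in CA3 at 12 months (median 332) and 6538 at 5 months (median 352). In the DG it reached 3017 at 12 months (median 53.3) and 7414 at 5 months (median 46.5). The part of such tissue in the members' values was not tested. Animal numbers form 2 runs. The first holds 10 rats of 12 months and 6 of 5 months, the second 6 of each. The labels do not call these runs batches, and the results below are also given within each. Mitochondrially encoded genes took 11.5 ± 1.81% of reads at 12 months and 8.54 ± 2.43% at 5 months in CA1 (SD, n = 16 and 12). In CA3 the shares were 9.04 ± 1.36% at 12 months and 7.59 ± 1.56% at 5 months, and in the DG 7.96 ± 1.26% at 12 months and 7.06 ± 2.64% at 5 months. In 1 rat, 12-month replicate 10, the summed microglial markers reached 33985 normalized counts in CA1 and 24541 in CA3, against 9081 and 9738 in the next library; without this rat 11 members passed the test in CA1, 8 passed in CA3 and 19 in the DG. Among the DG libraries of 5 months, replicates 6 and 3 stood apart with 12.6% and 12.1% mitochondrial reads, against 3.67% to 7.03% in the other 10. They held the 2 highest 5-month DG values of 12 members, among them Ppfia3, Sv2a, Slc17a7, Syt5 and Vamp2, and the 2 lowest of 3. In a fit without both rats, chosen after seeing the data, 10 members fell and 10 rose in the DG, and all 18 called from every library stayed past the threshold with the same sign.

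Within each single subregion most members passed in neither direction (26, 29 and 20 of 38 in CA1, CA3 and the DG). Only 12 of 38 passed in no subregion. Those that passed were more often lower than higher at 12 months in CA1 and CA3, and went both ways in the DG. In CA1, 10 of 38 members fell and 2 rose (26.3% and 5.26%), where 12.8% of all genes tested fell and 12.4% rose. In CA3, 9 of 38 fell and 0 rose (23.7% and 0%), where 10.8% of all genes fell and 10.9% rose. At an unadjusted p under 0.05 limma had 2 higher members there, where 2609 of 14893 genes were higher. On recovered reads edgeR called 1 member higher (and 1659 of 14893 genes) and DESeq2 1 (and 1792 of 14604). In the DG, 10 fell and 8 rose (26.3% and 21.1%), where 18.5% of all genes fell and 18.5% rose, so that the share that rose stood near the background. The test was limma on log2 of the normalized count plus 1, with an adjusted p under 0.05 over all genes tested, of which CA1 had 14685, CA3 14893 and the DG 14526. The median log2 change of the 38 members stood at -0.10 in CA1, at -0.09 in CA3 and at -0.04 in the DG, against 0.00, 0.00 and 0.01 for all genes. Every member's 12-month and 5-month ranges overlapped in each subregion, and the share of all genes that did so was not computed. Overlap does not mean a small change: Rims3 in CA1 had means of 157 ± 37.7 at 12 months and 242 ± 48.0 at 5 months (SD, n = 16 and 12). Without 5-month replicate 8 the CA1 count was 6 members in all instead of 12. In bulk tissue, fewer cells of a type and less RNA per cell cannot be told apart.

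Cplx1, Ppfia3 and Rims3 fell in all 3 subregions, and Bsn, Rab3a, Stx1a, Sv2a, Syt5 and Unc13a fell in 2. Snap25 rose in CA1 and the DG. Erc2, Napb, Pclo, Rims2, Sv2c, Syt1 and Syt4 passed as higher in the DG alone, and Unc13c in CA1 alone, which does not by itself show that the subregions differ. Without both 5-month rats rich in mitochondrial reads in the DG, Unc13c passed as higher there too (0.43, limma, adjusted p = 0.000851). That fit was chosen after seeing the data. The rats left out held the highest 5-month Unc13c values in the DG, 1491 and 1476, so leaving them out raises the change by itself. No member passed in opposite directions in different subregions. The scale of the DG values bears on its counts: rescaled to RPM (each library to an equal total of reads), 11 members were higher and 5 lower in the DG, where 66.6% of all called genes were then higher (49.98% as deposited). On that scale 2 members were higher and 8 lower in CA1, and 2 higher and 9 lower in CA3. No called member changed sign.

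**Figure D1:**
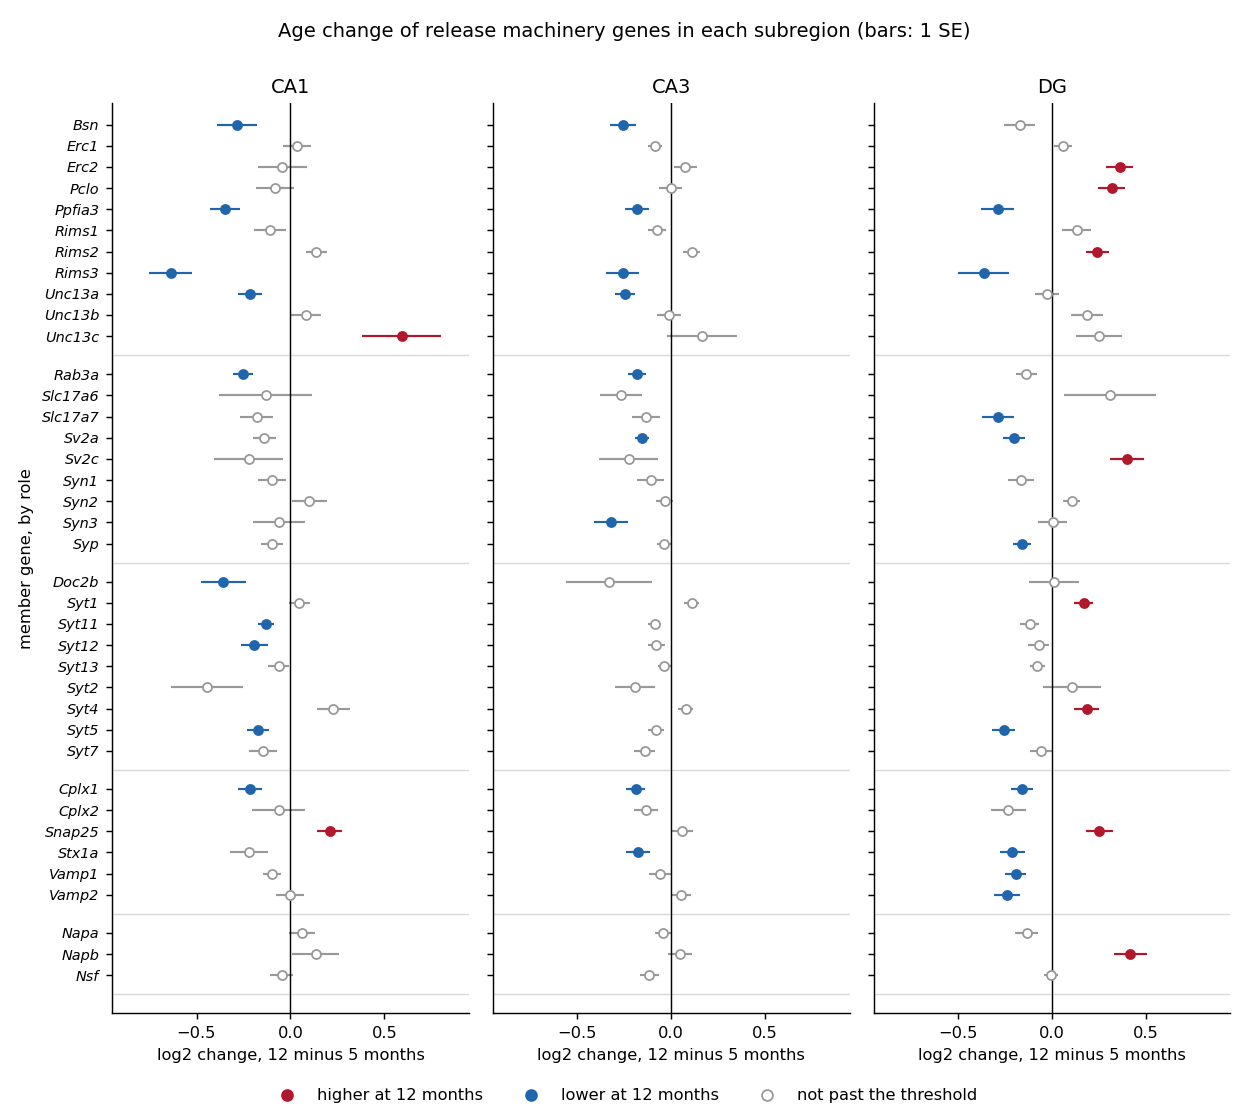
Log2 change at 12 months against 5 months of the 38 measured members (rows, grouped by role from the active zone at the top to SNARE disassembly at the bottom) in CA1, CA3 and the DG; points are limma estimates, bars 1 SE, with 16 and 12 rats. Filled points passed the adjusted threshold: 2 higher and 10 lower in CA1, 0 and 9 in CA3, 8 and 10 in the DG.

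The promoter windows of 6 of these genes are printed because they stand for the main patterns, Rims3, Ppfia3 and Cplx1 for the fall shared by the 3 subregions and Pclo, Erc2 and Napb for the rise in the DG. Each holds 250 bases before and 50 after the annotated gene start, from RefSeq on build GRCr8 (the deposited data used rn6), on the gene's strand, 5′ to 3′. Capitals mark GGGCGG or its reverse complement, the GC box, which 33.1% of 33469 such windows hold. The first 3 belong to genes that were lower at 12 months in each subregion.
Rims3, chr5:139714070-139714369, plus strand: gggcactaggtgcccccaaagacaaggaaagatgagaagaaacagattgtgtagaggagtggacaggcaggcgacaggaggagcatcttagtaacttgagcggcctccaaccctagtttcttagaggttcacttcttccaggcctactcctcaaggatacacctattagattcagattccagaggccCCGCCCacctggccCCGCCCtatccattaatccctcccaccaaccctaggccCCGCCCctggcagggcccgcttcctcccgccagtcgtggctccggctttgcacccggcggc
Ppfia3, chr1:104982229-104982528, minus strand: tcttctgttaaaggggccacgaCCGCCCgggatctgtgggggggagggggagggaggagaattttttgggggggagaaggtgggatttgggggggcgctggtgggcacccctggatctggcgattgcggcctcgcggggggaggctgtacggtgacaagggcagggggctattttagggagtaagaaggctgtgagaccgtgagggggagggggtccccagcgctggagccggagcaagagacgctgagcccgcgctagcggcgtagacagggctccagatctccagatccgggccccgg
Cplx1, chr14:1328823-1329122, plus strand: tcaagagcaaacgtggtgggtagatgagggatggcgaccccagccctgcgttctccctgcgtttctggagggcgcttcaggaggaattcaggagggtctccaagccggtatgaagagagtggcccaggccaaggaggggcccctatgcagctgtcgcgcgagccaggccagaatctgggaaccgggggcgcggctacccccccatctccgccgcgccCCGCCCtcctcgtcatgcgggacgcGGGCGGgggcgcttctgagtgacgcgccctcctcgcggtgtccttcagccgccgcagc
The next 3 belong to genes that were higher at 12 months in the DG.
Pclo, chr4:21005062-21005361, minus strand: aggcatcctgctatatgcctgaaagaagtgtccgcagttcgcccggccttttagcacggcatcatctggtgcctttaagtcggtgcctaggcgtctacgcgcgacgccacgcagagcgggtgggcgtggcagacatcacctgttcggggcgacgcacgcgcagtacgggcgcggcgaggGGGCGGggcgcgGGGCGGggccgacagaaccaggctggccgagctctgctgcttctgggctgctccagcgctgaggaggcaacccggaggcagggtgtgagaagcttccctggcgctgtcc
Erc2, chr16:2819262-2819561, plus strand: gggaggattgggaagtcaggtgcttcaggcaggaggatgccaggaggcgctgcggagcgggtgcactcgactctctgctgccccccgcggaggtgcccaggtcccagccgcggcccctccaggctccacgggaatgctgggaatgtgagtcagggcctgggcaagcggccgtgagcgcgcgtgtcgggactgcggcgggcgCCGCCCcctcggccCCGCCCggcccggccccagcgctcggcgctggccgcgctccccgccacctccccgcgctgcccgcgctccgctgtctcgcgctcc
Napb, chr3:156632369-156632668, minus strand: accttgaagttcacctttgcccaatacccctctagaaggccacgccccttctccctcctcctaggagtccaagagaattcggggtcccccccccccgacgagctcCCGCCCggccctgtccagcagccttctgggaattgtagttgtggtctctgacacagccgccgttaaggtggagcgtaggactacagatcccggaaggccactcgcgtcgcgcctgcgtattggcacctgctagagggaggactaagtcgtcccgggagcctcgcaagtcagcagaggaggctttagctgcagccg
Each of the 6 windows held at least 1 GC box, with 3 in Rims3, 2 in Cplx1, Pclo and Erc2, and 1 in Ppfia3 and Napb. The box also stood in windows of members that passed in no subregion, among them Napa and Nsf, so it is not particular to these 6. Neither the cAMP response element TGACGTCA (in 1.83% of all windows), the E box CACGTG (6.42%), TATAAA (14.2%) nor TTCAGCACC, the left part of the REST element (0.356%), occurred in them on either strand. Bases G and C made up between 59% (Rims3) and 76.7% (Erc2) of the window, against a median of 51.7% over all windows. These matches describe letters and show no binding. A comparison over all members is void, because a window was at hand for 31 of 39 genes (79.5%, under the 80% needed).

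Markers of other cells moved in places with these counts. Of all genes tested, 12.8% fell and 12.4% rose in CA1, 10.8% and 10.9% in CA3, and 18.5% each way in the DG. In lists this short, 1 or 2 genes can lie near these shares. Of 9 pan-neuronal markers 4 fell in each subregion, and 1 rose in CA3 and in the DG. Their summed level ran from 54032 to 69922 normalized counts (median 61439) at 12 months and from 57334 to 71482 (median 61802) at 5 months in CA1. In the DG it ran from 61195 to 70960 (median 67442) at 12 months and from 57729 to 73376 (median 63115) at 5 months. Of 6 CA1 pyramidal markers 2 fell in CA1, with a sum from 32192 to 56348 (median 42163) at 12 months and from 36033 to 64381 (median 49991) at 5 months. Of 7 microglial markers 5 rose in CA3, 2 in CA1 and 1 in the DG. Their CA3 sum ran from 5940 to 24541 (median 6720) at 12 months and from 4940 to 6405 (median 5903) at 5 months. The CA1 median of this sum was 7007 at 12 months and 6696 at 5 months. For the DG it was lower at 12 months, 4874 against 5188 at 5 months. Markers of oligodendrocyte precursors fell, 3 of 5 in CA1, 2 in CA3 but 3 in the DG, with a CA1 sum from 4834 to 7692 (median 6146) at 12 months and from 5836 to 8086 (median 6943) at 5 months. Mature oligodendrocyte markers summed to between 112762 and 260386 (median 167704) at 12 months and between 155486 and 283652 (median 200454) at 5 months in CA1, where 2 of 7 fell. Dentate granule markers in the DG, of which 2 of 6 rose and 1 fell, summed to between 11400 and 17657 (median 15434) at 12 months and between 12773 and 18587 (median 15929) at 5 months. Of 4 endothelial markers 2 fell in the DG, with a sum from 1913 to 3343 (median 2620) at 12 months and from 2423 to 3578 (median 3029) at 5 months. Of 7 astrocyte markers 2 fell in each subregion and 1 rose in CA3 and in the DG, and of 9 interneuron markers 2 fell in CA1 and 2 rose in the DG. In the DG 2 of 7 CA3 pyramidal and 1 of 6 CA1 pyramidal markers fell, of 6 thalamic and subicular markers 2 fell in CA1 and 1 in the DG, and 1 mature oligodendrocyte marker fell in CA3 and 1 rose in the DG. The ranges of all these sums overlapped between ages, and the part of cell composition in the members' changes was not tested.

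Among active zone genes, the proteins that organise docking and priming, 4 of 11 fell and 1 rose in CA1, 4 fell and 0 rose in CA3, and 2 fell and 3 rose in the DG. Of all genes 12.8% fell and 12.4% rose in CA1, 10.8% fell and 10.9% rose in CA3 and 18.5% each did in the DG, so the rise in CA1 (9.09%) and the falls in the DG (18.2%) were no more frequent than the background. Rims3 encodes RIM3-gamma, a short member of the RIM family. In CA1 its normalized counts ran from 96.2 to 250 (median 148) at 12 months and from 183 to 309 (median 244) at 5 months. Nearly every 12-month library, 15 of 16, lay below the 5-month median, and the ranges overlapped at their edges. The log2 change was -0.64 ± 0.12 (SE; 0.642-fold, limma, adjusted p = 0.000766), the largest fall of any member in CA1. In CA3 the values ran from 108 to 195 (median 151) at 12 months and from 138 to 242 (median 174) at 5 months, a change of -0.26 ± 0.09 (adjusted p = 0.0299). In the DG they ran from 86.0 to 225 (median 128) at 12 months and from 130 to 311 (median 162) at 5 months, a change of -0.36 ± 0.14 (adjusted p = 0.0355). The overlap was wider there, with 12 of 16 libraries of 12 months below the 5-month median. The DG call did not hold on the RPM scale (-0.31, adjusted p = 0.0827). By run of animal numbers the DG change was 0.02 (first run) and -0.80 (second run). Leaving out 1 rat at a time, the CA3 call was lost without 5-month replicates 7, 9 or 10, and the DG call without 12-month replicates 5, 7, 12 or 14, or 5-month replicates 7 to 10.

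Ppfia3 encodes liprin-alpha-3, a scaffold that recruits active zone proteins. Its normalized counts in CA1 ran from 2603 to 4487 (median 3595) at 12 months and from 3600 to 5936 (median 4433) at 5 months, a log2 change of -0.35 ± 0.08 (limma, adjusted p = 0.00336). In CA3 the levels were from 3443 to 5198 (median 4404) at 12 months and from 4011 to 5712 (median 4824) at 5 months, a change of -0.18 ± 0.06 (adjusted p = 0.0387). The DG values ran from 2891 to 4741 (median 3623) at 12 months and from 3612 to 6312 (median 4282) at 5 months, a change of -0.29 ± 0.09 (adjusted p = 0.0104). The 2 highest of those 5-month values, 6312 and 6174, came from the libraries rich in mitochondrial reads, and the next was 4731; without both rats the DG change was -0.19 (adjusted p = 0.0463). The middle of the older group was lower in each subregion while the upper parts of both groups mixed, with 15, 12 and 13 of 16 libraries below the younger median in CA1, CA3 and the DG. The CA3 call was the least firm: it was lost without 12-month replicates 7, 10 to 14 or 16, or 5-month replicates 1, 2, 4, 7, 9, 10 or 12, although the change stayed between -0.21 and -0.16. It was also lost in a limma fit that weighted each library (array weights, -0.14, adjusted p = 0.0814).

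Bsn, for the giant scaffold Bassoon, had normalized counts in CA1 from 6871 to 14136 (median 9180) at 12 months and from 8758 to 18395 (median 10956) at 5 months. In CA3 it ran from 9828 to 16697 (median 13265) at 12 months and from 13002 to 19708 (median 15285) at 5 months. Both ages spread widely, and the older libraries tended to the low side, 11 of 16 below the 5-month median in CA1 and 14 in CA3. The log2 change was -0.29 ± 0.11 in CA1 (limma, adjusted p = 0.0467) and -0.26 ± 0.07 in CA3 (adjusted p = 0.00787), and -0.17 ± 0.08 in the DG, which did not pass (0.0965). The CA1 call was lost without 12-month replicates 7 to 12 or 14 to 16, or 5-month replicates 1 to 4, 7, 8 or 12 (changes between -0.33 and -0.22), and on the RPM scale. It was also lost in a limma fit that weighted each library (array weights, -0.20, adjusted p = 0.0954).

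Unc13a encodes Munc13-1, the priming factor of most glutamatergic terminals. In CA1 its normalized counts ran from 3706 to 5357 (median 4626) at 12 months and from 4448 to 6418 (median 5139) at 5 months. In CA3 they ran from 3595 to 5026 (median 4243) at 12 months and from 4325 to 6321 (median 4871) at 5 months. Most older libraries lay below the younger median, 14 of 16 in CA1 and 15 in CA3. The log2 changes were -0.21 ± 0.06 in CA1 and -0.25 ± 0.05 in CA3 (limma, adjusted p = 0.0164 and 0.00155), against -0.03 ± 0.06 in the DG (adjusted p = 0.765). Unc13b, for the related Munc13-2, changed by 0.08 ± 0.08, -0.01 ± 0.06 and 0.19 ± 0.08 in CA1, CA3 and the DG and passed in none.

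Unc13c, for Munc13-3, a priming factor best known from cerebellar granule cells, went the other way in CA1. Its normalized counts there ran from 138 to 741 (median 203) at 12 months and from 111 to 233 (median 146) at 5 months, a log2 change of 0.59 ± 0.21 (limma, adjusted p = 0.0383). The shift came with a long upper tail in the older rats: replicates 3, 14, 5 and 4 of that age held the 4 highest values, 741, 516, 510 and 321. The same 4 libraries were among the 5 with the most dentate granule cell markers in CA1, whose sum was 5792, 8161, 5571 and 6793 in that order. Over all libraries the 6 measured genes of that list summed to between 934 and 8161 (median 3507) at 12 months and between 1305 and 5799 (median 2777) at 5 months, and 0 of 6 passed as changed. Unc13c is itself highest in the DG, and the part of DG tissue in its CA1 rise was not tested. The call was lost without 12-month replicates 3 to 5 or 14, or 5-month replicates 1 to 4, 8 or 10 (changes between 0.48 and 0.65). In the DG, 5-month replicates 6 and 3 held its highest values of that age, 1491 and 1476, with 936 the next. Unc13c did not pass there with every library, but changed by 0.43 without both rats (limma, adjusted p = 0.000851). That fit was chosen after seeing the data, and leaving out the highest 5-month values raises the change by itself.

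Apart from Unc13c in CA1, the active zone genes that rose did so in the DG. Pclo, for Piccolo, the partner scaffold of Bassoon, ran there from 5391 to 8472 (median 7761) at 12 months and from 4663 to 7958 (median 5826) at 5 months, a log2 change of 0.32 ± 0.07 (limma, adjusted p = 0.00156). Erc2, for the ELKS-family protein CAST, ran from 720 to 1171 (median 979) at 12 months and from 588 to 907 (median 746) at 5 months, a change of 0.36 ± 0.07 (adjusted p = 0.000621). Rims2, a calcium-channel-binding RIM, ran from 1443 to 2034 (median 1735) at 12 months and from 1233 to 1818 (median 1466) at 5 months, a change of 0.24 ± 0.06 (adjusted p = 0.00313). For each of these genes 15 of 16 older libraries lay above the 5-month median, although the ranges overlapped. In CA1 and CA3 the changes were -0.08 ± 0.10 and 0.00 ± 0.06 for Pclo, -0.04 ± 0.13 and 0.08 ± 0.06 for Erc2 and 0.14 ± 0.06 and 0.11 ± 0.05 for Rims2, none past the threshold. Rims1, for RIM1, and Erc1, for ELKS1, passed nowhere with every library, with changes between -0.11 and 0.13. Without both 5-month rats rich in mitochondrial reads, a fit chosen after seeing the data, Rims1 passed in the DG (0.20, limma, adjusted p = 0.0320). These rats held high Rims1 values there, 4146 and 3965 against a 5-month median of 3076. Leaving them out raises the change by itself, so this pass is no separate evidence of a rise.

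**Figure D2:**
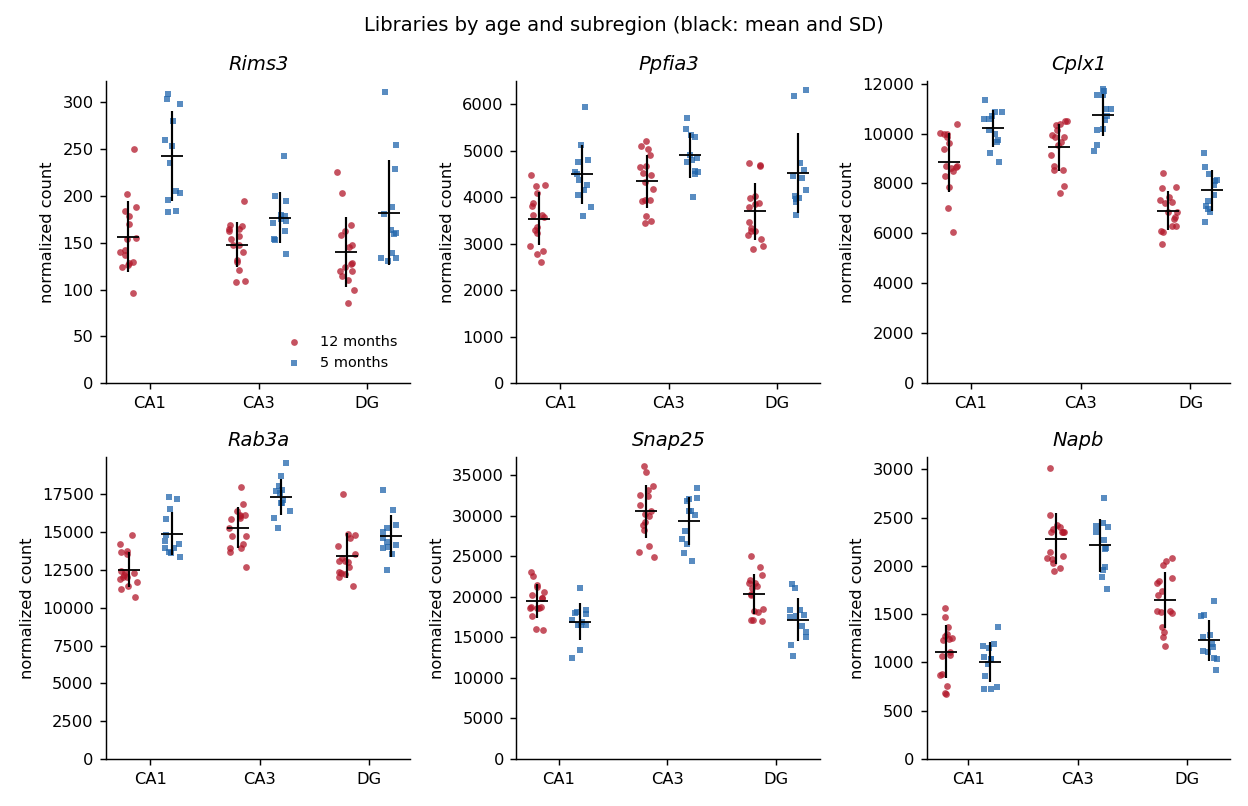
Normalized counts (vertical axis, from 0) of 6 members in every library, by subregion; 12 months in red on the left of each pair (n = 16), 5 months in blue on the right (n = 12), with the mean and SD in black. Rims3, Ppfia3 and Cplx1 sit lower at 12 months in each subregion, Rab3a in CA1 and CA3, while Snap25 sits higher in CA1 and the DG and Napb in the DG; every pair overlaps.

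Among the vesicle proteins and transporters, 1 of 9 measured members fell in CA1, 3 fell in CA3, and 3 fell and 1 rose in the DG. The falls were 11.1%, 33.3% and 33.3% of the group, against 12.8%, 10.8% and 18.5% of all genes in CA1, CA3 and the DG, and the 1 rise in the DG (11.1%, against 18.5%) was below the background. Rab3a, the main small GTPase of synaptic vesicles, had normalized counts in CA1 from 10727 to 14785 (median 12244) at 12 months and from 13327 to 17361 (median 14334) at 5 months. In CA3 it ran from 12696 to 17958 (median 15561) at 12 months and from 15250 to 19552 (median 17349) at 5 months. Of 16 older libraries 15 lay below the younger median in each of these subregions, so that the groups met only over part of their ranges. The log2 change was -0.25 ± 0.05 in CA1 (0.84-fold, limma, adjusted p = 0.00206) and -0.18 ± 0.05 in CA3 (adjusted p = 0.00612), and -0.14 ± 0.06 in the DG, which did not pass (0.055). Averaged over a rat's 3 subregions the change was -0.19 ± 0.04 (adjusted p = 9.14e-05), the smallest p of any member.

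Sv2a encodes a glycoprotein of the vesicle membrane that is the binding site of levetiracetam. Its normalized counts ran from 7190 to 8537 (median 7920) at 12 months and from 7766 to 10003 (median 8655) at 5 months in CA3. In the DG they ran from 6397 to 8847 (median 7509) at 12 months and from 7431 to 11222 (median 8233) at 5 months. All 16 older CA3 libraries, and 15 of 16 in the DG, lay below the younger median. The log2 changes were -0.15 ± 0.04 and -0.20 ± 0.06 (limma, adjusted p = 0.00413 and 0.00806), and -0.14 ± 0.06 in CA1 missed the threshold (0.0815). The 2 highest 5-month values in the DG, 11222 and 10136, were those of replicates 3 and 6, with 8798 the next, and without both rats the DG change was -0.14 (adjusted p = 0.0308). Its paralog Sv2c, read at low counts, ran the other way in the DG, from 150 to 241 (median 174) at 12 months and from 93.8 to 183 (median 139) at 5 months, a change of 0.40 ± 0.09 (adjusted p = 0.00155) with all 16 older libraries above the younger median. In CA1 and CA3 Sv2c changed by -0.22 ± 0.19 and -0.23 ± 0.16, neither past the threshold.

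Synaptophysin (Syp), an abundant vesicle membrane protein, ran in the DG from 10098 to 14236 (median 11694) at 12 months and from 11892 to 15246 (median 13212) at 5 months, a log2 change of -0.16 ± 0.05 (limma, adjusted p = 0.0111). The vesicular glutamate transporter VGLUT1 (Slc17a7) ran there from 34741 to 59715 (median 43774) at 12 months and from 43683 to 81376 (median 50926) at 5 months, a change of -0.29 ± 0.09 (adjusted p = 0.00954). Both groups shared most of their range, with 15 and 14 of 16 older libraries below the younger median. The Syp call did not hold on the RPM scale. Slc17a7 was highest in the same replicates 6 and 3, and its change was -0.19 without both rats (adjusted p = 0.0379). Slc17a6, for VGLUT2, did not pass in any subregion, with changes of -0.13 ± 0.25, -0.27 ± 0.11 and 0.31 ± 0.24 in CA1, CA3 and the DG, and its counts varied widely between rats, with a coefficient of variation up to 54.5% in a group.

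Synapsins tether vesicles to actin and to each other. Syn3 ran in CA3 from 81.0 to 139 (median 111) at 12 months and from 104 to 207 (median 138) at 5 months, a log2 change of -0.32 ± 0.09 (limma, adjusted p = 0.0127). The older libraries filled the lower part of the joint range, 15 of 16 below the younger median. In CA1 and the DG it changed by -0.06 ± 0.14 and 0.00 ± 0.08, and Syn1 and Syn2 passed in no subregion, with changes between -0.17 and 0.10.

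Among the synaptotagmin genes and Doc2b, 4 of 9 fell in CA1, 0 passed in CA3, and in the DG 2 rose and 1 fell. Not every gene of this group encodes a calcium sensor, as Syt11 does not bind calcium. The CA1 falls were 44.4% of the group, against 12.8% of all genes, while in the DG 22.2% rose and 11.1% fell, against 18.5% of all genes each way, near or under the background. Syt1, the fast calcium sensor of glutamate release, ran in the DG from 15373 to 21555 (median 18448) at 12 months and from 14784 to 18429 (median 16683) at 5 months, a log2 change of 0.17 ± 0.05 (limma, adjusted p = 0.00981). Syt4, a synaptotagmin found on dense-core vesicles, ran there from 2285 to 3851 (median 3087) at 12 months and from 2181 to 3353 (median 2739) at 5 months, a change of 0.18 ± 0.07 (adjusted p = 0.0283), and this call was lost without 5-month replicates 7 or 11. The older groups were shifted up within ranges that largely coincided, with 13 and 15 of 16 libraries above the younger median. In CA1 the changes were 0.05 ± 0.06 for Syt1 and 0.23 ± 0.09 for Syt4, and in CA3 0.11 ± 0.04 and 0.08 ± 0.04, all short of the threshold.

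Syt5 ran in CA1 from 2524 to 4048 (median 3141) at 12 months and from 3318 to 4012 (median 3631) at 5 months. In the DG it ran from 2664 to 3873 (median 3085) at 12 months and from 3270 to 4677 (median 3845) at 5 months. The older rats were lower in both, more clearly in the DG, where 15 of 16 libraries lay below the younger median. The log2 changes were -0.17 ± 0.06 and -0.26 ± 0.06 (limma, adjusted p = 0.0299 and 0.00167), and -0.08 ± 0.04 in CA3 did not pass. The CA1 call was lost without 5-month replicates 1, 2 or 8.

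Other genes of this group passed in CA1. Syt11, a synaptotagmin that does not bind calcium, ran from 18690 to 23004 (median 20090) at 12 months and from 19209 to 24256 (median 22762) at 5 months, a log2 change of -0.13 ± 0.04 (limma, adjusted p = 0.0249), which was lost on the RPM scale. Syt12 ran from 1088 to 1880 (median 1351) at 12 months and from 1248 to 1907 (median 1646) at 5 months, a change of -0.19 ± 0.07 (adjusted p = 0.0456). Doc2b, a soluble high-affinity sensor linked to spontaneous release, ran from 503 to 1373 (median 857) at 12 months and from 903 to 1666 (median 1004) at 5 months, a change of -0.36 ± 0.12 (adjusted p = 0.0295). In each the older libraries lay mostly low in a shared range, 15, 14 and 12 of 16 below the younger median for Syt11, Syt12 and Doc2b. The Syt12 call was lost without 12-month replicates 3, 4, 7 to 9, 11, 12 or 14 to 16, or 5-month replicates 1 to 6, 8, 10 or 11 (changes between -0.23 and -0.17) and in edgeR, and that of Doc2b without 5-month replicates 1, 2 or 8. Syt2, Syt7 and Syt13 passed in no subregion. Syt2, a fast sensor mainly of hindbrain and inhibitory terminals, had the widest run values of these, 0.03 in the first and -0.98 in the second in CA1, and 0.55 and -0.40 in the DG.

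Of the SNAREs and complexins, 1 of 6 rose and 1 fell in CA1, 2 fell in CA3, and 1 rose and 4 fell in the DG. The DG falls were 66.7% and the CA3 falls 33.3% of the group, against 18.5% and 10.8% of all genes, while 1 of 6 (16.7%) each way in CA1 and 1 rise in the DG stood near or under the background of 12.8% lower and 12.4% higher in CA1 and 18.5% higher in the DG. Snap25, the plasma membrane SNARE that supplies a pair of helices to the fusion complex, ran in CA1 from 15894 to 23047 (median 19280) at 12 months and from 12381 to 21081 (median 16991) at 5 months. In the DG it ran from 17020 to 25027 (median 20722) at 12 months and from 12724 to 21544 (median 17601) at 5 months. Most older libraries lay above the younger median, 14 of 16 in CA1 and 13 in the DG, within ranges that overlapped broadly. The log2 changes were 0.21 ± 0.07 in CA1 (1.16-fold, limma, adjusted p = 0.0231) and 0.25 ± 0.07 in the DG (adjusted p = 0.00843), against 0.06 ± 0.06 in CA3 (adjusted p = 0.521). The CA1 call was lost without 5-month replicate 8.

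None of its SNARE partners passed as higher. Stx1a, for syntaxin-1A, ran in CA3 from 2575 to 4009 (median 3402) at 12 months and from 3170 to 4447 (median 3808) at 5 months, a log2 change of -0.18 ± 0.06 (limma, adjusted p = 0.0398). In the DG Stx1a ran from 2172 to 3693 (median 2756) at 12 months and from 2942 to 3880 (median 3188) at 5 months, a change of -0.21 ± 0.07 (adjusted p = 0.0143), which was lost on the RPM scale. In both the older rats were shifted down by less than the width of either group, with 13 of 16 libraries below the younger median. The CA3 call was lost without 12-month replicates 5, 7 or 10 to 14, or 5-month replicates 1, 2, 4, 7, 9 or 12 (changes between -0.20 and -0.15). It was also lost in a limma fit that weighted each library (array weights, -0.13, adjusted p = 0.110).

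The vesicle SNAREs Vamp1 and Vamp2, for synaptobrevin-1 and -2, fell in the DG. Vamp1 ran there from 3293 to 4649 (median 3787) at 12 months and from 3694 to 4947 (median 4442) at 5 months, a log2 change of -0.19 ± 0.05 (limma, adjusted p = 0.007), which did not hold on the RPM scale. Vamp2 ran from 12974 to 21460 (median 17347) at 12 months and from 17185 to 27047 (median 19540) at 5 months, a change of -0.24 ± 0.07 (adjusted p = 0.01). The groups shared much of their range, with 15 and 14 of 16 older libraries below the younger median. Vamp2 too had its 2 highest 5-month values in replicates 6 and 3, 27047 and 21967, and changed by -0.18 without both rats (adjusted p = 0.0345). In CA1 and CA3 Vamp2 changed by 0.00 ± 0.08 and 0.05 ± 0.05, and Vamp1 by -0.10 ± 0.05 and -0.06 ± 0.06, none past the threshold.

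Cplx1, for complexin-1, ran in CA1 from 6064 to 10374 (median 8705) at 12 months and from 8859 to 11362 (median 10348) at 5 months. In CA3 it ran from 7631 to 10508 (median 9754) at 12 months and from 9304 to 11792 (median 10838) at 5 months. In the DG it ran from 5589 to 8431 (median 6859) at 12 months and from 6437 to 9210 (median 7734) at 5 months. The older groups lay low throughout, with 15, 16 and 13 of 16 libraries below the younger median in CA1, CA3 and the DG. The log2 changes were -0.22 ± 0.07, -0.19 ± 0.05 and -0.16 ± 0.06 (limma, adjusted p = 0.0166, 0.00896 and 0.0357). The DG call was lost without 12-month replicates 1, 2, 5, 7 or 11, or 5-month replicates 7 to 10 or 12, and on the RPM scale. Cplx2, for complexin-2, changed by -0.06 ± 0.14, -0.13 ± 0.06 and -0.23 ± 0.09 in the same order and passed in no subregion; in the DG its adjusted p was 0.0517.

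Of the 3 genes that take SNARE complexes apart, Napb rose in the DG. It encodes beta-SNAP, the brain form of the adaptor that brings NSF to the complex, and ran there from 1166 to 2082 (median 1619) at 12 months and from 925 to 1635 (median 1177) at 5 months. The groups overlapped, with 15 of 16 older libraries above the younger median. The log2 change was 0.42 ± 0.09 (1.34-fold, limma, adjusted p = 0.00106), the largest rise of any member in the DG, against 0.14 ± 0.12 in CA1 and 0.05 ± 0.06 in CA3. The ATPase gene Nsf changed by -0.05 ± 0.06, -0.12 ± 0.05 and 0.00 ± 0.04 in CA1, CA3 and the DG, and the adaptor gene Napa, for alpha-SNAP, by 0.06 ± 0.07, -0.04 ± 0.05 and -0.14 ± 0.06, none past the threshold.

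Averaging each rat's 3 log2 values narrowed the errors, and 15 of 38 members fell and 6 rose (39.5% and 15.8%), where 24.6% of 14291 genes fell and 25.4% rose. On the RPM scale 9 rose and 13 fell, where 61.3% of all called genes rose (50.8% as deposited). The members that rose on average were Unc13c (0.34 ± 0.11), Napb (0.20 ± 0.06), Snap25 (0.17 ± 0.05), Rims2 (0.16 ± 0.04), Syt4 (0.16 ± 0.04) and Syt1 (0.11 ± 0.03). The smallest adjusted p values among those that fell were 9.14e-05 for Rab3a, 0.000116 for Rims3 (-0.42 ± 0.08), 0.000208 for Cplx1 (-0.19 ± 0.04) and 0.000241 for Syt5 (-0.17 ± 0.04), all by limma. Syt7, a slow high-affinity sensor for asynchronous release, passed here with -0.12 ± 0.04 (adjusted p = 0.0167) although it passed in no single subregion; on the RPM scale it missed (-0.08, adjusted p = 0.0742), as did Syp (-0.07, adjusted p = 0.106). No call on the average was lost when any 1 rat was left out. Pclo, Erc2 and Sv2c, which rose in the DG, did not pass on the average as deposited (0.08 ± 0.05, 0.13 ± 0.06 and -0.02 ± 0.08), though Pclo and Erc2 did on the RPM scale (0.11 and 0.16).

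Whether age acted differently between subregions was tested on differences within each rat. Between the DG and CA3, 2 of 38 members passed (5.26%), where 2.76% of all genes did. The change of Vamp2 in the DG minus that in CA3 was -0.29 ± 0.07 on the log2 scale (limma, adjusted p = 0.0323), and 16 of 16 older rats lay below the younger median difference. For Sv2c this difference was 0.63 ± 0.17 (adjusted p = 0.0448), in 13 of 16 rats. The Vamp2 call was lost without 5-month replicates 3, 6, 7 or 9 to 11, and that of Sv2c without 12-month replicates 1 to 3, 7 to 12 or 15, or 5-month replicates 4 to 11. Neither call held in a fit without pairing the libraries of a rat (no replicate block; adjusted p = 0.0716 for Vamp2 and 0.0643 for Sv2c), and that of Vamp2 was also lost without both 5-month rats rich in mitochondrial reads in the DG (-0.24, adjusted p = 0.0765). Between the DG and CA1, 0 of 38 members passed by limma, where 0.609% of all genes did, and between CA1 and CA3 0 of 38, where 0% did. At an unadjusted p under 0.05 by limma, 7 members were higher and 1 lower for DG minus CA1, where 1237 and 1087 of 14291 genes were. For CA1 minus CA3, 0 members were higher and 1 lower, where 809 and 624 genes were. No other tool was run on these differences. The rises of Pclo, Erc2, Rims2, Napb and Snap25 in the DG are not shown to differ from their changes in CA1 or CA3.

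The runs of animal numbers weigh differently in these results. In the first run alone 1 member passed in CA1, 2 in CA3, 0 in the DG and 6 on the average, where 3.19%, 4.83%, 0.172% and 18.4% of all genes passed. In the DG of that run 5 members were higher and 9 lower at an unadjusted p under 0.05, where 1598 and 1611 of 14526 genes were. These counts are by limma, the one tool fitted by run. In the second run alone 14, 7, 22 and 27 members passed, where 33.8%, 16.5%, 46.9% and 58.1% of all genes did. Of the members called from all rats, 12 of 12 in CA1, 9 of 9 in CA3, 17 of 18 in the DG and 21 of 21 on the average had the same sign in both runs, which choosing them by both makes likely. The exception was Rims3 in the DG. On the average, Rab3a, Syt5, Syt12, Slc17a7 and Ppfia3 passed in both runs, each lower; Rab3a changed by -0.20 in the first and -0.21 in the second. Among the DG rises, Napb had 0.34 and 0.54, Sv2c 0.42 and 0.34, Erc2 0.23 and 0.52, and Snap25 0.08 and 0.45. With a term for the run, all 12, 9, 18 and 21 members called in CA1, CA3, the DG and the average still passed. Ages hold separate blocks of numbers within a run, so a difference between blocks and age cannot be told apart.

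**Figure D3:**
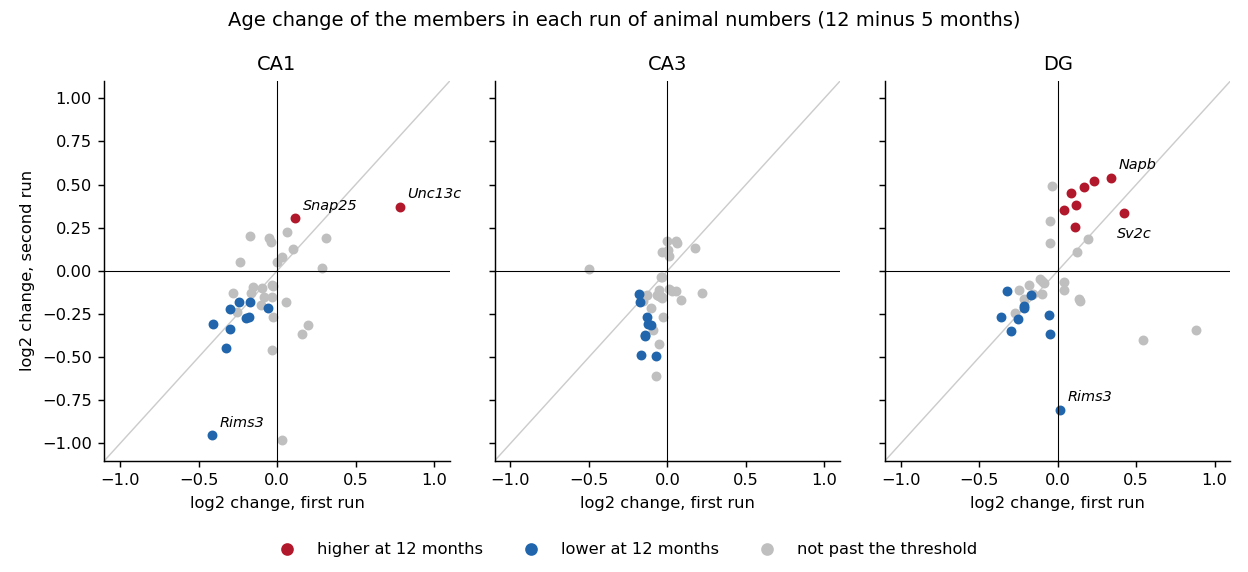
Log2 change at 12 months against 5 months of each member in the first run of animal numbers (horizontal axis, 10 and 6 rats) and in the second (vertical axis, 6 and 6 rats); red and blue points passed as higher and lower with all 28 rats, and the grey line marks equal change. Most coloured points lie in the lower left or upper right, and Rims3 in the DG sits at 0.02 and -0.80.

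The members also differed between subregions, read here with the rats of both ages pooled. The order was not the same at each age for every member. Syt5 had medians of 3845, 3631 and 3437 in the DG, CA1 and CA3 at 5 months, but 3085, 3141 and 3277 at 12 months. Erc2 had 882 in CA3 and 746 in the DG at 5 months, but 941 and 979 at 12 months. These levels are described without a test, because the 3 tables were each normalized on their own and the rank of a subregion can depend on scale. The highest subregion median was at least 2 times the lowest for 10 of 38 members (26.3%), against 10.6% of 14291 genes, and the median ratio was 1.61 against 1.27 for all genes. CA3 had the highest median for 22 members, the DG for 10 and CA1 for 6 (57.9%, 26.3% and 15.8%), where all genes gave 45.6%, 31.8% and 22.7%. In RPM the numbers were 15 for CA3, 14 for the DG and 9 for CA1, but the shares of all genes were not computed on that scale. Of 38 members, 31 kept the same highest subregion.

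Unc13c stood out for the DG, with a median of 872 normalized counts (470 to 1491 over 28 rats), against 242 (120 to 530) in CA3 and 177 (111 to 741) in CA1. It was highest in the DG in 28 of 28 rats on both scales, while the ranges of CA3 and CA1 largely coincided. Syn3 was also highest in the DG, at 289 (187 to 361), with 211 (78 to 292) in CA1 and 116 (81 to 207) in CA3. Its order held within all 28 rats for the DG over CA1, and within 25 in RPM. Cplx2 followed the order DG, CA3, CA1, with medians of 27323, 22186 and 12391 and neighbouring ranges that overlapped, and the DG was highest in 26 rats.

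Slc17a6 and Doc2b were highest in CA1. Slc17a6, for VGLUT2, had a median of 449 in CA1, but its range of 124 to 633 took in the whole CA3 range of 130 to 300 (median 181); the DG had 96 (32 to 236). In 22 of 28 rats CA1 was highest, and in the other 6 CA3 was. Doc2b had 971 (503 to 1666) in CA1, 499 (368 to 981) in the DG and 261 (64 to 539) in CA3, and CA1 was highest in 27 rats. Syt2 had 277 (125 to 515), 205 (118 to 282) and 120 (71 to 227) in CA1, CA3 and the DG, overlapping throughout, with CA1 highest in 20 rats.

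The ELKS genes Erc1 and Erc2 were both low in CA1. Erc1 had 3823 (3074 to 4185) in CA3 and 3205 (2694 to 3739) in the DG, and its CA1 range of 1408 to 2477 (median 1705) lay wholly below both. Erc2 had 903 (718 to 1063) in CA3, 856 (588 to 1171) in the DG and 406 (240 to 714) in CA1. CA3 and the DG did not differ for Erc2 beyond their spread, and their order turned round in RPM (48.4 and 48.8). Syt11 was the one member whose highest range lay wholly above both others, with 26865 to 33760 in CA3, against 18690 to 24256 in CA1 and 16568 to 24014 in the DG. Snap25 had 24401 to 36067 in CA3, which did not meet the 12381 to 23047 of CA1 but overlapped the 12724 to 25027 of the DG at its edge, and CA3 was highest in 28 of 28 rats. At the even end, 6 members had a ratio under 1.2, among them Syt5 and Sv2a at 1.05.

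**Figure D4:**
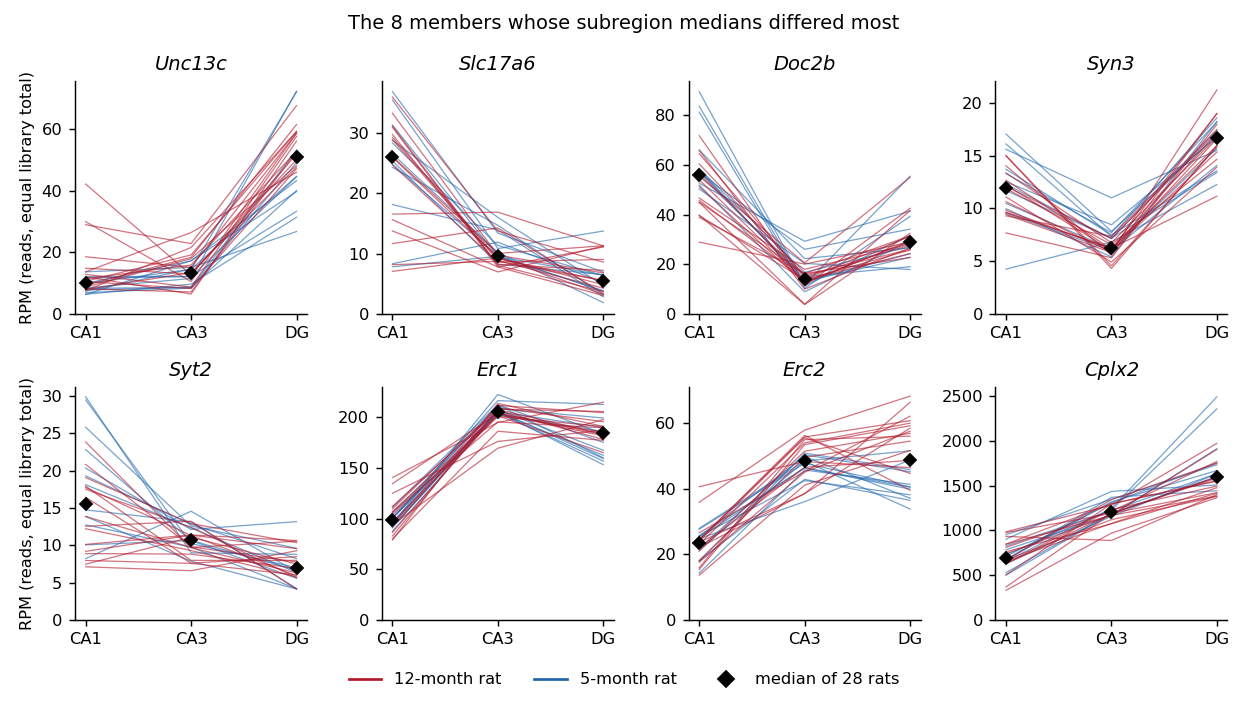
Reads scaled to an equal library total (RPM, vertical axis, from 0) of the 8 members with the largest ratio between subregion medians; each line joins the CA1, CA3 and DG libraries of 1 rat, red for 12 months and blue for 5 months, and black diamonds are medians of 28 rats. The DG is highest for Unc13c in all 28 rats, and the CA1 values of Slc17a6 spread into the range of CA3.

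Rats of one age and subregion differed from each other by a median coefficient of variation between 8.33% (CA3, 5 months) and 15.9% (CA1, 12 months) over the 38 members. The steadiest was Erc1 in CA3 at 5 months (3.97%). The widest were Unc13c in CA1 at 12 months (64.1%) and Slc17a6 in the DG at 5 months (54.5%).

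A wider list of 79 release and endocytosis genes was read beside the members, and 77 were tested. In CA1, 16 fell and 6 rose (12.8% and 12.4% of all genes), and in CA3 19 fell and 6 rose (10.8% and 10.9%). In the DG 22 fell and 16 rose (18.5% of all genes each way), and on the average 30 fell and 16 rose (24.6% and 25.4%). Of other vesicle proteins 6, 6 and 10 of 18 fell in CA1, CA3 and the DG, and of other active zone genes 4, 3 and 3 of 12. Of all genes 12.8%, 10.8% and 18.5% fell in these subregions, and whether the lists differ was not tested. Syngr1, for the vesicle protein synaptogyrin-1, had -0.55 ± 0.12, -0.43 ± 0.08 and -0.60 ± 0.11 on the log2 scale and -0.53 ± 0.08 on the average (limma, adjusted p = 7.71e-06). Scamp5, a secretory carrier membrane protein, changed by -0.32 ± 0.05 on the average (adjusted p = 1.03e-05), and Dnajc5, the cysteine string protein that chaperones SNAP-25, by -0.36 ± 0.07 in CA1 (adjusted p = 0.000903). Rims4, the other short RIM beside Rims3, fell in CA1 by 0.48 ± 0.08 (adjusted p = 0.000532).

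Endocytosis genes, which retrieve vesicle membrane after release, went both ways. Of 19, 2 rose and 4 fell in CA1, 3 and 5 in CA3, 4 and 4 in the DG, and 4 and 6 on the average. Of all genes 12.4%, 10.9%, 18.5% and 25.4% rose in this order, and 12.8%, 10.8%, 18.5% and 24.6% fell. All genes went both ways too, and whether this list differs from them was not tested. Picalm, a clathrin assembly protein that sorts VAMPs, rose by 0.29 ± 0.09, 0.20 ± 0.06 and 0.38 ± 0.07 in CA1, CA3 and the DG, and Eps15 and the clathrin heavy chain gene Cltc rose on the average by 0.29 ± 0.05 and 0.18 ± 0.04 (limma, adjusted p = 2.51e-05 and 0.000209). The AP-2 adaptor gene Ap2a1 changed by -0.20 ± 0.03 on the average (adjusted p = 3.18e-05), Ap2m1 by -0.22 ± 0.05 in CA3 and Pacsin1, for syndapin-1, by -0.29 ± 0.06 in CA1 and -0.28 ± 0.05 in CA3. Among other SNARE and docking genes 4 of 17 rose and 1 fell in CA1, where 12.4% of all genes rose and 12.8% fell. Vamp3 stood at 0.39 ± 0.10, Vamp4 at 0.25 ± 0.07 and Snap29 at 0.21 ± 0.06, all SNAREs of other membrane steps. In the DG 7 of 17 rose and 2 fell (18.5% of all genes each way), with Stxbp5l, for tomosyn-2, at 0.45 ± 0.09. Of other calcium sensors, Syt6 rose by 0.27 ± 0.05 and Syt3 changed by -0.28 ± 0.05 on the average (adjusted p = 3.81e-05 and 2.74e-05). The strand of the counts is not given in the sources used here, so reads of antisense or overlapping genes cannot be told apart from those of any gene named.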

How the data were processed

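The authors deposited a signal, normalized counts per gene. Per the labels, polyA RNA was fragmented with RNase III for Ion Total RNA-seq libraries, and build rn6, DESeq2 3.5, Partek and STAR 2.5.3a stand in the submitters' processing notes. The annotation, any gene filter and the strand were not given in the sources used here. All deposited values up to 1000 reads were whole multiples of 1 step per library (100% within 0.1 read), so reads were recovered by undoing it. The pseudocount of 1 understates folds of low genes.

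Genes that reached 10 in 12 or more of a subregion's 28 libraries were tested with limma 3.58.1 on log2(value + 1) (R 4.3.3, trended empirical Bayes, 2-sided) and Benjamini-Hochberg adjustment at 0.05 over all genes. The average used each rat's mean of 3 log2 values, and differences between subregions were taken within a rat, as the animal number in each title identifies it; deviations of a rat's libraries correlated with medians of 0.17, 0.12 and 0.10 for DG with CA1, DG with CA3 and CA1 with CA3. Levels across subregions were not tested, since tables were normalized separately. In CA3, 1 column bears an animal number alone and was taken for that animal's CA3 library.

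The members and lists were chosen with earlier results of these data known. All members may be named; those past the threshold and the 8 with the largest ratio between subregions were described in full, and of other release genes up to 4 per comparison and direction by p. On simulated data, with 100 genes changed at each fold per subregion, 78% of genes changed 1.5-fold were recovered for CA1, 78% for CA3 and 81% for the DG, and 30%, 44% and 29% of those changed 1.2-fold. Far more genes passed in the real tests, and the adjusted threshold depends on how many genes change, so these shares need not hold there. Alternatives were TMM, RPM (an equal total of reads per library), array weights, robust moderation, a pseudocount of 0.5 or 5, a minimum of 50 or none, a run term, recovered reads in edgeR 4.0.16 or DESeq2 1.42.0, each run alone, leaving out each rat, and the rat as a random block or left out. A fit without both 5-month rats rich in mitochondrial reads in the DG was added after seeing the data. The main tests used every library, and no 2 libraries agreed within sampling noise.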

Additional observations from a re-analysis of the deposited data

Results flagged for a closer look

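For 2 members the change with age differed between the DG and CA3 in the test on differences within rats. Sv2c changed by 0.40 ± 0.09 on the log2 scale in the DG and by -0.23 ± 0.16 in CA3, a difference of 0.63 ± 0.17 (SE, 16 and 12 rats; limma, adjusted p = 0.0448), which was 0.51 within the first run of animal numbers and 0.68 within the second. Vamp2 changed by -0.24 ± 0.07 in the DG and by 0.05 ± 0.05 in CA3, a difference of -0.29 ± 0.07 (adjusted p = 0.0323), which was -0.33 within the first run and -0.24 within the second. Neither passed in a single run, and the call was lost in 18 of 28 fits without 1 rat for Sv2c and in 6 of 28 for Vamp2. Both calls were also lost with no replicate block, that is, without pairing the libraries of a rat (adjusted p = 0.0643 for Sv2c and 0.0716 for Vamp2).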

How the results depend on the processing

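Of 62 called values of members over the 7 comparisons, all 62 kept direction and call with TMM, robust moderation, a pseudocount of 0.5 or 5, a minimum of 50 or none and a run term, 59 with array weights and 53 in RPM. The 3 calls lost with array weights were Bsn in CA1 and Ppfia3 and Stx1a in CA3. Of 39 within subregions, edgeR called 38 (all but Syt12 in CA1) and DESeq2 39. With the rat as a random block on the average, all 21 stayed and 1 was added. The first run alone kept 7 of 62 and the second 52; the number of rats differs, and the cause was not tested. In the first run 1 member passed in CA1 (468 genes in all), 2 in CA3 (719), 0 in the DG (25) and 6 on the average (2628), and Rims3 in the DG stood at 0.017 there. Vamp2 in CA1 was 0.21 in the second run and passed there. With a term for the run 14 members passed in CA3.

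Differences between subregions depended most on settings. For DG minus CA1, 4 members passed with array weights, and the genes passing (87 in the main test) were 169 with a minimum of 50, 170 in RPM, 567 with array weights, 266 with the run term, 1 in the first run alone, 19 in the second and 8 with no replicate block. For DG minus CA3, members passing were 7 with array weights, 0 in the first run alone, 4 in the second and 0 with no replicate block, and genes 970, 1, 773 and 170. For CA1 minus CA3, genes passing were 2 with a pseudocount of 5, 1 with a minimum of 50, 6 with array weights, 33 with the run term, 62 in the first run and 7 with no replicate block.

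Leaving out 1 rat gave 6 to 14 members in CA1. For DG minus CA1 it gave 0 to 2 members and 17 to 376 genes, for DG minus CA3 0 to 6 members and 115 to 908 genes, and for CA1 minus CA3 0 to 20 genes. No paired analysis was possible within a subregion because each rat has 1 age. Without both 5-month rats rich in mitochondrial reads in the DG, chosen after seeing the data, 1 member and 244 genes passed for DG minus CA3. On simulated data at these depths, with 100 genes changed at each fold, 29% to 44% of 1.2-fold changes were recovered. Far more genes passed in the real tests, so these shares need not hold there.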
